A study of Homo sapiens with 18 samples.

Results

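The comparison is between THP-1 cells that carried active NOTCH1 (NIC1) and THP-1 cells that carried the empty vector (IRES), neither of them given IL-4. Its members were chosen by library title and are 6 of the 18 libraries of the series, 3 NIC1 and 3 IRES, numbered by the experiments 1, 2 and 3. THP-1 is a human cell line from a monocytic leukaemia, which phorbol ester (PMA) turns towards a macrophage. In the NIC1 group the cells were transduced with an MSCV retroviral vector carrying GFP and a MYC-tagged NOTCH1 intracellular domain, sorted for GFP, and kept in PMA at 5 ng/ml for 48 h. In the IRES group the cells carried the MSCV vector with GFP and no insert, and were sorted and given the same PMA treatment. All 6 libraries therefore share the cell line, the vector backbone, the sort and the PMA. The insert was driven from the retroviral vector and not from the NOTCH1 locus, and all libraries came from a single line. Nothing in the labels says whether the 3 numbers are separate transductions. The p-values here set the difference between NIC1 and IRES within experiments against the spread left among the fitted libraries. That spread may be in part technical, so the p-values may not hold for further transductions. Of the other 12 libraries, 3 carried dominant-negative Mastermind-like (DNMAML) without IL-4, and 9 were the same 3 constructs after 3 h with 20 ng/ml of IL-4.

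Notch receptors are cut at the membrane when a neighbouring cell presents a Delta-like or Jagged ligand, and the freed intracellular domain moves to the nucleus. There it joins the DNA-binding protein RBPJ and a Mastermind-like coactivator and switches on target genes, among them the HES and HEY repressors. The intracellular domain introduced here needs no ligand and no cleavage. In blood cells the pathway is best known for committing progenitors to the T cell lineage, and in macrophages for shaping inflammatory gene expression.

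The 3 NIC1 libraries held 13239834, 13187235 and 12410668 counts in genes, and the 3 IRES libraries held 13223476, 14409907 and 12510561. IRES library 3 stood apart, with counts in 23179 genes against 21067 to 21505 in the other 5, so counts that lead the results are also given without it. Over the 9 libraries without IL-4, the first principal component (47.1% of the variance) set experiment 2 apart. NIC1 also lay above IRES on it, towards experiment 2, at -0.487 against -28, 39.5 against 34.2 and -0.137 against -15 in experiments 1, 2 and 3. On the second (18.4%), NIC1 again lay above IRES in each experiment, at 32.3 against -3.48, at 6.56 against -12.5 and at 17.8 against 1.67. The difference between NIC1 and IRES was therefore not confined to a component separate from that of experiment 2. Monocyte and macrophage markers varied in level, and 24 of 34 listed had enough counts to test. SPI1, the myeloid master regulator, had 338 ± 24.0 CPM in NIC1 and 327 ± 13 CPM in IRES (SD, n = 3 each). CPM is counts scaled to a common total of reads in genes. CSF1R, the receptor for macrophage colony-stimulating factor, had 207 ± 51.7 CPM in NIC1 and 233 ± 62.8 CPM in IRES. CD68, which overlaps other genes in the annotation, was counted at under 2 CPM in every library. CD14 had 131 counts over the NIC1 libraries and 158 over the IRES libraries. MSR1 had 4 and 4, MARCO 7 and 4 and MRC1 1 and 1, too low to test.

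NOTCH1 (chr9:136494433-136545786, minus strand, GENCODE 29 on GRCh38, as for all positions here) had a level of 246, 350 and 267 CPM in NIC1 libraries 1, 2 and 3, against 157, 234 and 174 CPM in IRES libraries 1, 2 and 3. All 3 NIC1 libraries lay above all 3 IRES libraries. The log2 fold change (NIC1 over IRES, here and throughout) was 0.61 ± 0.058 (SE), with an adjusted p of 0.00029. Counts per gene do not tell reads of the insert from reads of the cell's own NOTCH1. MAML1, the gene from which dominant-negative Mastermind-like is derived, had 76.1, 82.3 and 87.7 CPM in NIC1 and 87.4, 80.7 and 99.1 CPM in IRES, which overlapped and did not pass the test (log2 change -0.12, adjusted p = 0.431).

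Across the genome, NIC1 cells showed more genes higher than lower. Of 14601 genes tested, 514 (3.52%) passed an adjusted p of 0.05, 366 of them higher in NIC1 (2.51%) and 148 lower (1.01%). The median log2 change of the 366 was 0.60, with 75 beyond 1 and 12 beyond 2. The median of the 148 was -0.49, with 12 beyond -1 and 1 beyond -2. All 366 higher genes and 146 of the 148 lower genes moved the same way in all 3 experiments. The test compares NIC1 with IRES within experiments of these same libraries. Such agreement is therefore largely built into the calls and is no separate support. The 3 NIC1 values lay outside the range of the 3 IRES values in 195 higher and 73 lower genes. Over all genes tested, non-overlap of this kind was found in 10.1%, with 5.34% on the higher side and 4.75% on the lower side. Protein-coding genes made up 349 of the higher and 146 of the lower calls among 12718 tested, long non-coding RNAs 13 and 2 among 1228. Among 4 equal groups by level, 1.73% of genes were called in the bottom group, below 5.58 CPM, and 4.99% in the top group, above 67.7 CPM.

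These calls rest on comparing NIC1 with IRES within an experiment. Without the experiment number as a block, 0 of the 14601 genes passed edgeR's test, with 857 at an unadjusted p under 0.05 against 2316 with it. They also rest on the few control libraries: 140 genes were called without IRES library 1, 260 without IRES library 2 and 207 without IRES library 3, against 392 to 552 when a NIC1 library was left out. Leaving out both libraries of experiment 3 gave 86.

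**Figure D1:**
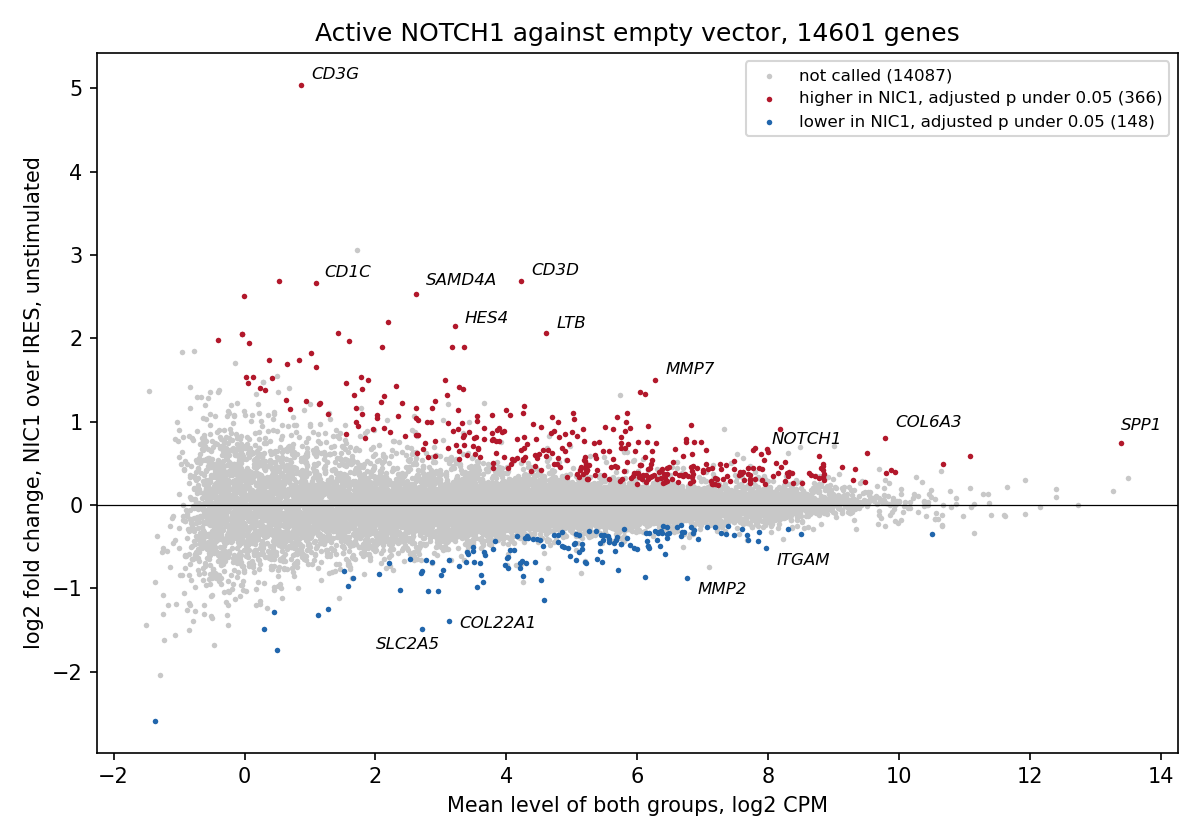
Log2 fold change, NIC1 over IRES without IL-4, against the mean level of both groups in log2 CPM, 1 point per gene tested. Red points are the 366 genes called higher in NIC1 and blue points the 148 called lower, at an adjusted p under 0.05; the red points reach farther from 0 than the blue ones, and CD3G, at the top, had 4 counts in all in the IRES libraries.

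Among genes known as direct Notch targets, several rose and none fell. Of 20 on the list 14 passed the filter on low counts, and 5 of these rose (HES4, DTX1, NOTCH3, HES1 and HEY1). Over all genes tested, 2.51% were called higher. The median log2 change of the 14 was 0.54 against 0.0015 over all genes. The list's count was 2 without IRES library 1 and 3 without NIC1 library 3, IRES library 2 or IRES library 3. Promoters of called members of the Notch target, T cell and CD1 lists were searched for the RBPJ motif where a RefSeq entry was at hand. DTX1, HEY1, CD3G and TRAC had no entry. Of the 6 found (HES4, HES1, NOTCH3, CD3D, CD1C and CD1D), those of HES4, HES1 and CD3D are shown because they held a match. The other 3 held none. They run from 250 bases before to 50 bases after the RefSeq start (GRCh38.p14, HES4 at chr1:1000048-1000347 on the minus strand, HES1 at chr3:194135898-194136197 on the plus strand). Capitals mark GTGGGAA, a form of the RBPJ motif, searched on both strands. The shorter TGGGAA is not marked on its own.
HES4: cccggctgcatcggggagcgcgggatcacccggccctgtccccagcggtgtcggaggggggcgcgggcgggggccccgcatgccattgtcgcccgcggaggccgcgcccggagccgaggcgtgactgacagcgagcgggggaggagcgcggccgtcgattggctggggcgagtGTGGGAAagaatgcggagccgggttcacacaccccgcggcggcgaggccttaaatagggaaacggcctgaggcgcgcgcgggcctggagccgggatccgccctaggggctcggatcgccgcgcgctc
HES1: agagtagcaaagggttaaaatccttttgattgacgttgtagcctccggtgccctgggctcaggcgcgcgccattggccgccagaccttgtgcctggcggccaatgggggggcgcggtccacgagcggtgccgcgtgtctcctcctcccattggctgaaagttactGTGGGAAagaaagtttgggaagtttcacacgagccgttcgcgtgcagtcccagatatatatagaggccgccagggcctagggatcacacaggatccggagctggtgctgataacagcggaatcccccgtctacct

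The match begins 77 bases before the start of HES4 and 85 bases before that of HES1. As a description of the whole set, 15 of the 272 higher genes with a promoter in the table held GTGGGAA (5.51%), as did 5 of 116 lower genes (4.31%) and 619 of all 10890 tested genes (5.68%). TGGGAA was held by 19.9% of the higher, 21.6% of the lower and 21.7% of all these genes.

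HES4 (chr1:998962-1000172, minus strand), a basic helix-loop-helix repressor, had a level of 12, 18.5 and 14.7 CPM in NIC1 libraries 1, 2 and 3, against 2.04, 4.55 and 3.67 CPM in IRES libraries. The lowest NIC1 library lay well above the highest IRES library. Its log2 change of 2.15 ± 0.16 (SE) had the smallest adjusted p of the named genes, 0.00016. DTX1 (chr12:113056709-113098028, plus strand), the Deltex ubiquitin ligase that regulates Notch, had 4.42, 6.14 and 3.92 CPM in NIC1 and 1.02, 1.59 and 1.09 CPM in IRES, a log2 change of 1.97 ± 0.23 (SE) with an adjusted p of 0.00098. These groups did not overlap either. NOTCH3, a receptor gene that is itself a Notch target in other cells, had 205, 356 and 304 CPM in NIC1 against 130, 238 and 233 CPM in IRES. Its groups overlapped over the experiments, while within each experiment NIC1 was higher (log2 change 0.54 ± 0.089, SE; adjusted p = 0.0064, and 0.0504 without IRES library 1).

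HES1 (chr3:194136145-194138732, plus strand), the repressor most often used as a readout of Notch activity, had 23.6, 32.7 and 26 CPM in NIC1 against 10.2, 24.3 and 15.3 CPM in IRES. Its log2 change was 0.79 ± 0.17 (SE) with an adjusted p of 0.029. HEY1 had 4.11, 4.94 and 4 CPM in NIC1 and 1.53, 2.82 and 2.50 CPM in IRES, a log2 change of 0.94 ± 0.21 (SE) and an adjusted p of 0.030. Both calls were narrow. HES1 was lost without NIC1 library 3 or any of the 3 IRES libraries (adjusted p between 0.0906 and 0.196), and HEY1 whichever of the 6 libraries was left out (between 0.0538 and 0.259).

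The other 9 tested targets did not pass. TCF7, a T cell transcription factor, had 5.48, 8.45 and 6.73 CPM in NIC1 and 4.07, 4.98 and 4.91 CPM in IRES, with no overlap and an adjusted p of 0.073. NRARP, a feedback inhibitor of the Notch complex, had 6.01, 13.8 and 10.5 CPM in NIC1 and 6.18, 6.86 and 7.18 CPM in IRES, with the first NIC1 library below every IRES library (adjusted p = 0.161). MYC, a target in T cell leukaemia, had 51.3 ± 5.34 CPM in NIC1 and 51.1 ± 18.4 CPM in IRES (SD, n = 3 each), and its log2 change was 0.05 ± 0.11 (SE). CCND1, GATA3, IL7R, PTCRA, HES6 and HEYL had adjusted p between 0.278 and 0.886 and log2 changes between -0.67 and 0.89. HES2, HES5, HES7, HEY2, IL2RA and CR2 were too low to test.

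**Figure D2:**
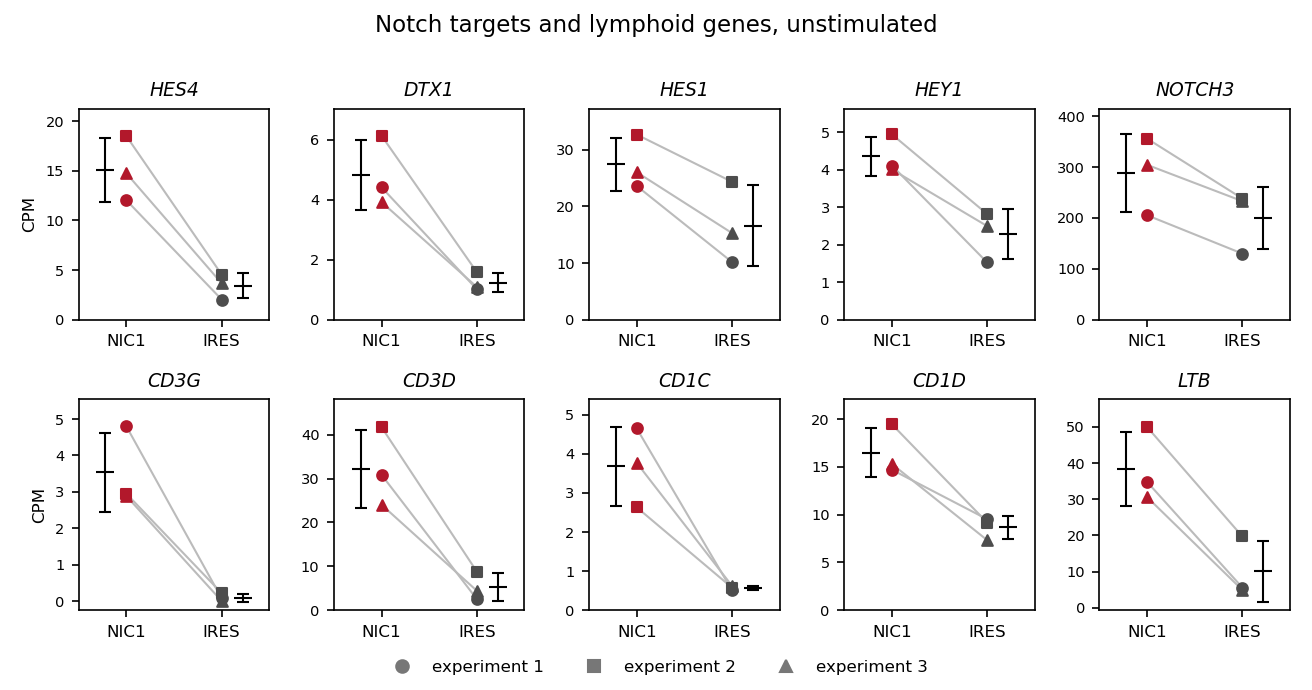
Level in CPM of 5 Notch targets (upper row) and 5 genes of lymphoid and CD1 function (lower row) in each library, NIC1 left and IRES right, with lines joining libraries of the same experiment. Black bars are the mean ± SD of 3 libraries; in all 10 genes each NIC1 library lies above the IRES library of its experiment.

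Of 46 listed components of the pathway's own machinery, 44 were tested, 4 rose and none fell, beside 2.51% called higher over all genes, and the median log2 change was -0.04. The count was 1 without IRES library 1 or 3, 2 without NIC1 library 3 or IRES library 2, and 8 without NIC1 library 2. Besides NOTCH1 itself, the 4 were LFNG, which adds sugars to Notch receptors and changes the ligands they answer to, NUMB, an adaptor that sends Notch to degradation, and JAG1, a ligand. LFNG had 26.5, 43.4 and 24.9 CPM in NIC1 against 15.5, 35.6 and 17.9 CPM in IRES (log2 change 0.49, adjusted p = 0.025). NUMB had 328, 473 and 300 CPM in NIC1 against 200, 413 and 256 CPM in IRES (log2 change 0.38, adjusted p = 0.040). JAG1 had 99.7, 142 and 126 CPM in NIC1 against 44.8, 113 and 99.1 CPM in IRES (log2 change 0.59, adjusted p = 0.049). All 3 genes overlapped between groups and their calls hung on single libraries. LFNG was lost without NIC1 library 1 or IRES library 1 or 3 (adjusted p between 0.0527 and 0.215). NUMB was lost without NIC1 library 3 or any IRES library (0.0566 to 0.327), and JAG1 on leaving out any library but NIC1 library 1 (0.0542 to 0.0895) and over all 18 libraries (0.283). RBPJ, the DNA-binding partner, had 147 ± 13.3 CPM in NIC1 and 145 ± 14.9 CPM in IRES, and NOTCH2, another receptor of the family, had 232 ± 34.4 CPM in NIC1 and 241 ± 22.9 CPM in IRES (SD, n = 3 each; adjusted p of 0.928 and 0.786).

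CD3 genes, which encode the signalling chains of the T cell receptor, were among the genes with the largest changes. CD3D (chr11:118338954-118342744, minus strand) had 30.8, 41.7 and 24.0 CPM in NIC1 against 2.54, 8.81 and 4.45 CPM in IRES. Every NIC1 library lay above every IRES library, and the log2 change was 2.69 ± 0.26 (SE), with an adjusted p of 0.0010. CD3G, its neighbour on the same chromosome (chr11:118344344-118355161, plus strand), had 136 counts over the 3 NIC1 libraries and 4 over the 3 IRES libraries, too few in IRES for a size, with an adjusted p of 0.00039. The promoter of CD3D is the third with a match (RefSeq, GRCh38.p14, chr11:118342656-118342955, minus strand). Its only match lies on the other strand, so that it reads TTCCCAC (in capitals), 63 bases before the start.
CD3D: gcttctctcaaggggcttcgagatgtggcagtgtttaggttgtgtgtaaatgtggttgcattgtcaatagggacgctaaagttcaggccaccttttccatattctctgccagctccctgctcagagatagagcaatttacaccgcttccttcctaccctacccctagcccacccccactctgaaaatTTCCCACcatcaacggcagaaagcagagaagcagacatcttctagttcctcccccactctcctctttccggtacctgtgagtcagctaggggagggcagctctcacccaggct

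TRAC was the other call on the T cell list. Of its 23 genes, 10 passed the filter and 3 rose (CD3G, CD3D and TRAC, 2 of them also without IRES library 3), none fell. Over all genes, 2.51% were called higher. The filter can admit a gene through a single group. CD3G, near 0 in IRES, passed it only through other libraries, so its place among the tested genes is not independent of its rise. TRAC, the constant region of the T cell receptor alpha chain, had 113, 113 and 97.2 CPM in NIC1 and 84.5, 95.3 and 88.0 CPM in IRES, without overlap (log2 change 0.27, adjusted p = 0.040). That call was lost on leaving out any library but NIC1 library 3 (adjusted p between 0.0765 and 0.376). The kinase genes LCK and ZAP70, the adaptor LAT and the transcription factor BCL11B had adjusted p between 0.456 and 0.942. GZMB and PRF1, the cytotoxic granule genes, had log2 changes of 0.88 and 0.76 and adjusted p of 0.191 and 0.0937. Among defining T cell markers, CD247, CD8B and TRAT1 had 0 counts in all 6 libraries, CD3E had 5 counts in the NIC1 libraries and 2 in the IRES libraries, and CD2 had 0 and 2. The summed level of the list lay between 138 and 188 CPM in NIC1 and between 95.9 and 128 CPM in IRES. In bulk RNA, more cells with a transcript and more transcript per cell cannot be told apart. B cell genes had 5 tested of 13 and none called, with a summed level of 20.5 to 28.0 CPM in NIC1 and 14.3 to 25.2 CPM in IRES.

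CD1 genes, whose products present lipids to T cells, were the other called members among genes of antigen-presenting cells. CD1C had 4.64, 2.63 and 3.76 CPM in NIC1 against 0.509, 0.578 and 0.624 CPM in IRES (log2 change 2.66 ± 0.345, SE; adjusted p = 0.0016), or 141 counts against 23. CD1D had 14.7, 19.4 and 15.3 CPM in NIC1 against 9.52, 9.17 and 7.33 CPM in IRES (log2 change 0.92 ± 0.13, SE; adjusted p = 0.0024). Neither gene overlapped between groups. With 23 counts over the IRES libraries, CD1C passed the filter on low counts only through other libraries, so its call and non-overlap are not independent of that filter. CD1A had 69 counts in NIC1 and 37 in IRES and did not pass (adjusted p = 0.231), and CD1E, with 18 and 3, was too low to test. The 2 CD1 genes were the only calls among 14 tested of 21 dendritic cell and CD1 genes, beside 2.51% called higher over all genes. CLEC10A, FLT3, IRF8, CD86 and CCR7 were not called. MHC class II genes had 8 tested of 14, none called, and a median log2 change of -0.08.

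Several genes of low level, grouped here by size alone, rose by more than 1 on the log2 scale. LTB (chr6:31580525-31582522, minus strand), the lymphotoxin beta gene of the TNF family, had 34.8, 50 and 30.6 CPM in NIC1 against 5.6, 19.7 and 4.91 CPM in IRES, a log2 change of 2.07 ± 0.22 (SE) with an adjusted p of 0.0017. It was the only call among 24 tested NF-kappaB and inflammatory cytokine genes, beside 3.52% called over all genes. Of the 24, 5 were called without NIC1 library 3 or over all 18 libraries and 4 by DESeq2. Without NIC1 library 1 it was 3, and without NIC1 library 2 or IRES library 1 it was 2. IL1RL1, the receptor for interleukin 33, had 4.11, 4.70 and 4.17 CPM in NIC1 against 0.581, 1.73 and 0.858 CPM in IRES (log2 change 2.07, adjusted p = 0.0042). It overlaps IL18R1 in the annotation, so reads of the shared stretch cannot be placed. PIGR, which carries polymeric immunoglobulin across epithelia, had 9.29, 5.82 and 7.53 CPM in NIC1 against 2.04, 1.16 and 1.72 CPM in IRES (log2 change 2.20, adjusted p = 0.00018). CMKLR1, the chemerin receptor, was the only call among 19 tested chemokine genes (2 were called without NIC1 library 1 or 3, or by DESeq2), with 2.97, 2.95 and 3.52 CPM in NIC1 against 0.727, 1.23 and 0.702 CPM in IRES (log2 change 1.82, adjusted p = 0.00365). SAMD4A, an RNA-binding repressor of translation, had 7.69, 15.1 and 8.49 CPM in NIC1 against 1.38, 2.67 and 1.33 CPM in IRES (log2 change 2.54, adjusted p = 0.00018). In all 5 genes the groups were apart. IL1RL1 and CMKLR1 were too low in IRES to pass the filter on low counts through that group. They passed it only through other libraries, so their calls and non-overlap are not independent of that filter.

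Others of this kind were PPP1R3A, a glycogen-targeting subunit of protein phosphatase 1, at a log2 change of 2.69, the transcription factor ARNT2 at 1.90, and the keratin gene KRT3 at 1.90 (adjusted p of 0.0019, 0.0010 and 0.0041). TPRG1, at 1.90, had an adjusted p of 0.0060 and of 0.0608 without IRES library 1. PRKG1, a cGMP-dependent kinase, was at 1.74 with an adjusted p of 0.020. Its groups overlapped, since NIC1 library 2 had 0.956 CPM and IRES library 3 had 1.01 CPM, and its call was lost without NIC1 library 1 or 3 or IRES library 1 or 3 (0.0525 to 0.229).

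Among immediate early genes, which cells switch on within minutes of a stimulus, 12 of 26 rose, beside 2.51% over all genes. All 26 were tested, none fell and 24 had a log2 change above 0, with a median of 0.50. EGR3, a zinc finger transcription factor, had 54.4, 81.4 and 68.7 CPM in NIC1 against 25.9, 49.1 and 43.3 CPM in IRES (log2 change 0.81 ± 0.091, SE; adjusted p = 0.00071). DUSP1, a phosphatase of MAP kinases, had 30.1, 67.8 and 39.1 CPM in NIC1 against 14.7, 38.2 and 28.5 CPM in IRES (log2 change 0.76 ± 0.099, SE; adjusted p = 0.0016). EGR3 was apart between groups and DUSP1 overlapped, as experiment 2 was high in both groups. NR4A1, an orphan nuclear receptor, had 52.4, 78.7 and 95.2 CPM in NIC1 against 30.7, 30.2 and 53.6 CPM in IRES (log2 change 0.99 ± 0.16, SE; adjusted p = 0.012, and 0.0929 without IRES library 1). NR4A3, of the same family, was at 0.65 (adjusted p = 0.013), lost without IRES library 1 or 2 (0.0738 and 0.0610).

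The other 8 called members are named with their values seen. DUSP5, a phosphatase of ERK, had 70.4, 132 and 75.2 CPM in NIC1 against 15, 63.0 and 39.3 CPM in IRES (log2 change 1.36, adjusted p = 0.024, and 0.0518 without IRES library 2). EGR1 was at 1.11 and DUSP2 at 1.06. IER2, BTG2, JUND, DUSP6 and JUNB had log2 changes between 0.34 and 0.52. The calls of these 7 were lost without IRES library 1 and without IRES library 3 (adjusted p between 0.0771 and 0.28), and each also without at least 1 NIC1 library. The AP-1 genes FOS and JUN did not rise: FOS had 73.0, 49.5 and 85.9 CPM in NIC1 and 82.9, 66.2 and 90.6 CPM in IRES (log2 change -0.22, adjusted p = 0.156), and JUN 28.6 ± 5.40 CPM in NIC1 and 29.2 ± 5.03 CPM in IRES (SD, n = 3 each). The count of 12 was 3 without IRES library 1, 5 without IRES library 3, 7 without NIC1 library 2 or IRES library 2, and 4 without experiment 2.

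Genes of secreted matrix proteins and their proteases moved in both directions. Of 34 listed, 28 were tested, with a median log2 change of 0.23. Beside 2.51% higher and 1.01% lower over all genes, 4 of these rose (MMP7, SPP1, TIMP1 and MMP19) and 2 fell (MMP2 and SPARC). Without IRES library 3, 5 were called. SPP1 (chr4:87975650-87983426, plus strand), osteopontin, had 14971, 11860 and 13515 CPM in NIC1 against 7275, 7453 and 9524 CPM in IRES, a log2 change of 0.75 ± 0.12 (SE) with an adjusted p of 0.0042. MMP7, matrilysin, had 172, 59.3 and 113 CPM in NIC1 against 46.4, 24.3 and 47.6 CPM in IRES (log2 change 1.5 ± 0.13, SE; adjusted p = 0.00050). MMP2 (chr16:55389700-55506691, plus strand), gelatinase A, had 65.3, 70.6 and 94.4 CPM in NIC1 against 127, 130 and 163 CPM in IRES (log2 change -0.87 ± 0.080, SE; adjusted p = 0.00024). In these 3 genes the groups were apart, with MMP2 the lower gene of smallest adjusted p. SPARC, a collagen-binding glycoprotein, had 52.1, 51.6 and 53.0 CPM in NIC1 against 80.8, 66.2 and 78.8 CPM in IRES (log2 change -0.53, adjusted p = 0.0034). TIMP1, an inhibitor of metalloproteinases, had 2322, 2934 and 2526 CPM in NIC1 against 1189, 2071 and 2032 CPM in IRES (log2 change 0.59, adjusted p = 0.0094), and was lost without IRES library 1 or 2 (0.0876 and 0.0553). MMP19 was at 0.42 and was lost on leaving out any library but NIC1 library 3 (0.0695 to 0.198). FN1, fibronectin, and MMP9, gelatinase B, did not pass (log2 changes -0.74 and 0.33, adjusted p of 0.166 and 0.0758).

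Outside the lists, the higher genes of at least 50 CPM with the smallest p included COL6A3, MATK, PKDCC, LBH and SDC2. COL6A3 (chr2:237324003-237414375, minus strand), a chain of collagen VI, had 968, 1393 and 1001 CPM in NIC1 against 497, 738 and 691 CPM in IRES (log2 change 0.81 ± 0.084, SE; adjusted p = 0.00051). MATK, a kinase that inhibits SRC-family kinases, had 229, 334 and 230 CPM in NIC1 against 135, 233 and 142 CPM in IRES (log2 change 0.66, adjusted p = 0.00039). PKDCC, a secreted tyrosine kinase, had 64.2, 102 and 77.5 CPM in NIC1 against 37.3, 62.8 and 44.5 CPM in IRES (log2 change 0.76, adjusted p = 0.00018). COL6A3 and PKDCC were apart between groups, and MATK overlapped because IRES library 2 lay just above NIC1 libraries 1 and 3. SDC2, the heparan sulfate proteoglycan syndecan 2, was at 0.66 and the transcription cofactor LBH at 0.75 (adjusted p of 0.00079 and 0.00070). The non-coding genes with the smallest p were MAP3K4-AS1 (log2 change 1.05) and AC112721.2 (1.08), which lies upstream of COL6A3. MAP3K4-AS1 overlaps MAP3K4, and without a stated strand setting their reads cannot be told apart.

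**Figure D3:**
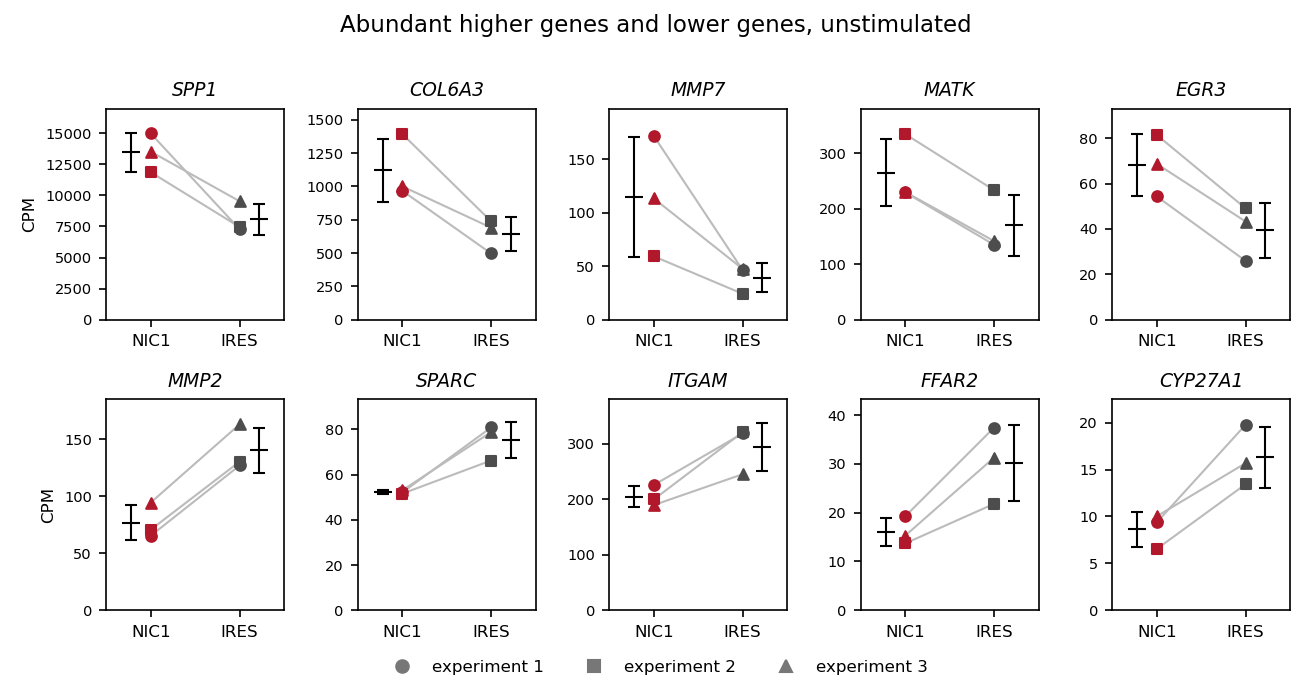
Level in CPM of 5 genes called higher in NIC1 (upper row) and 5 called lower (lower row) in each library, NIC1 left and IRES right, with lines joining libraries of the same experiment. Black bars are the mean ± SD of 3 libraries; MMP2, SPARC, ITGAM, FFAR2 and CYP27A1 are lower in every NIC1 library than in any IRES library.

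Lower genes named for their size or p had varied functions. FFAR2, a receptor for short-chain fatty acids, had 19.3, 13.7 and 15.3 CPM in NIC1 against 37.4, 21.8 and 31.3 CPM in IRES (log2 change -0.89 ± 0.11, SE; adjusted p = 0.00098). CYP27A1, the sterol 27-hydroxylase, had 9.37, 6.53 and 10.0 CPM in NIC1 against 19.8, 13.4 and 15.7 CPM in IRES (log2 change -0.92 ± 0.12, SE; adjusted p = 0.0017). Both were apart between groups. SLC2A5, the fructose transporter, had 3.81, 1.67 and 4.65 CPM in NIC1 against 16.4, 4.62 and 8.11 CPM in IRES (log2 change -1.48 ± 0.21, SE; adjusted p = 0.00265), with IRES library 2 just below NIC1 library 3. COL22A1, a collagen chain, was at -1.40 and AOC1, a diamine oxidase, at -0.78 (adjusted p of 0.00244 and 0.00265). IL13RA1, a receptor chain for IL-13 and IL-4, had 221, 152 and 208 CPM in NIC1 against 338, 184 and 276 CPM in IRES (log2 change -0.43, adjusted p = 0.0044, and 0.0527 without IRES library 1). FAT1, an atypical cadherin, had 59.1, 40.5 and 47.4 CPM in NIC1 against 124, 65.4 and 83.1 CPM in IRES (log2 change -0.87, adjusted p = 0.0069, and 0.144 without NIC1 library 1). DST, a cytoskeletal linker, was at -0.52 (adjusted p = 0.00365).

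Some lower genes had few counts or calls that did not hold. ANKRD22 was at -1.74 with 24 counts in NIC1 and 89 in IRES, and was lost without NIC1 library 1 or IRES library 1 or 3 (0.0951 to 0.321). TMEM176A and TMEM176B, which overlap on opposite strands, were at -1.03 and -0.99, and TMEM176B was lost without IRES library 1 (0.0793). S100A8, a calcium-binding protein of myeloid cells, had 7.54, 2.39 and 4.97 CPM in NIC1 against 19.1, 3.68 and 8.89 CPM in IRES (log2 change -1.04, adjusted p = 0.014). It kept its call only without NIC1 library 2 or IRES library 3, with adjusted p between 0.0623 and 0.196 otherwise, and 0.0912 over all 18 libraries. SYNE2, DHRS2, FGFR3 and the non-coding gene AC073957.3 were lost in 4 or 5 of the 6 fits that left out a library.

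Macrophage genes changed in both directions. Of 34 listed, 24 were tested, with a median log2 change of -0.08. Beside 2.51% higher and 1.01% lower over all genes, 3 of these rose (MAF, MERTK and CD36) and 4 fell (ITGAM, TREM2, SIGLEC1 and LYZ). Leaving out 1 library gave 3 to 6 calls, with 3 without IRES library 1 and 4 without IRES library 2. MAF (chr16:79585843-79600714, minus strand), a transcription factor of tissue macrophages and T helper cells, had 25.3, 25.5 and 27.5 CPM in NIC1 against 9.52, 11.3 and 16.1 CPM in IRES (log2 change 1.11 ± 0.13, SE; adjusted p = 0.0011). ITGAM, the CD11b integrin chain, had 226, 200 and 189 CPM in NIC1 against 318, 321 and 245 CPM in IRES (log2 change -0.52 ± 0.072, SE; adjusted p = 0.0022). The groups of both genes were apart. MERTK, a receptor for apoptotic cells, had 32.3, 46.7 and 29 CPM in NIC1 against 20.8, 32.0 and 21.5 CPM in IRES (log2 change 0.54, adjusted p = 0.0044). CD36, a scavenger receptor, had 60.5, 27.4 and 42.6 CPM in NIC1 against 32.9, 18.4 and 21.2 CPM in IRES (log2 change 0.83, adjusted p = 0.010), and was lost whichever of the 3 IRES libraries was left out (0.0513 to 0.0821). SIGLEC1, sialoadhesin, had 19.9, 1.35 and 22.7 CPM in NIC1 against 54.9, 0.867 and 43.8 CPM in IRES. In experiment 2 the gene was near 1 CPM in both groups, and its call (log2 change -1.13, adjusted p = 0.018) was lost without NIC1 library 1 or 3 or IRES library 1 (0.102 to 0.242) and by DESeq2 (0.597). TREM2, a lipid receptor, and LYZ, lysozyme, were at -0.38 and -0.36 (adjusted p of 0.011 and 0.049). TREM2 was lost without IRES library 1 or 2 (0.139 and 0.0604), and LYZ on leaving out any library but NIC1 library 1 (0.125 to 0.236). CD14, the co-receptor for endotoxin, was not called (log2 change -0.18, adjusted p = 0.735).

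Granule and progenitor genes had 13 tested of 21, with 3 higher (GFI1, PRTN3 and MYB) and S100A8 lower. The shares over all genes were 2.51% higher and 1.01% lower. The count of 4 was 1 without IRES library 1, 2 without NIC1 library 1 or IRES library 3, and 6 by DESeq2. GFI1, a repressor that guides granulocyte development, had 52.5, 76.4 and 48.9 CPM in NIC1 against 31.5, 50 and 39.2 CPM in IRES (log2 change 0.56, adjusted p = 0.0030). PRTN3, the granule protease proteinase 3, had 71.0, 67.2 and 69.0 CPM in NIC1 against 36.5, 53.7 and 39.5 CPM in IRES (log2 change 0.68, adjusted p = 0.010), and was lost without NIC1 library 1 or IRES library 1 or 3 (0.0507 to 0.0793). MYB was at 0.61 and was lost without NIC1 library 2 or any IRES library (0.0585 to 0.135). Among 21 tested integrin and adhesion genes 4 rose and none fell, beside 2.51% called higher over all genes. The count was 1 without IRES library 1 or 3, and 2 without IRES library 2. ITGB7, an integrin beta chain of gut-homing lymphocytes, had 543, 527 and 520 CPM in NIC1 against 353, 377 and 419 CPM in IRES, without overlap (log2 change 0.47 ± 0.071, SE; adjusted p = 0.0033). CD9, ITGB3 and CD44 were at 0.43, 0.37 and 0.39, and each was lost without IRES library 1 and without IRES library 3 (0.0693 to 0.289). ITGB3 was also lost without NIC1 library 1 or 2 or IRES library 2 (0.0533 to 0.122), and CD44 without IRES library 2 (0.0741).

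Lists of metabolism, survival and the IL-4 response held 1 to 3 calls each, beside 3.52% called over all genes, and these counts ran from 0 to 4 when 1 library was left out. BCL2A1, an anti-apoptotic BCL2 relative, had 46.2, 43.3 and 34.5 CPM in NIC1 against 23.0, 23.1 and 21.5 CPM in IRES, with a log2 change of 0.87 ± 0.11 (SE) and an adjusted p of 0.0012. MCL1, another, was at 0.27 and kept its call only without NIC1 library 1, with adjusted p up to 0.296 otherwise. They were the 2 calls among 27 apoptosis regulators. TGM2, transglutaminase 2, had 362, 487 and 277 CPM in NIC1 against 135, 316 and 173 CPM in IRES (log2 change 0.91 ± 0.13, SE; adjusted p = 0.0069). Its groups overlapped, since IRES library 2 lay above NIC1 library 3, and its call was lost over all 18 libraries with the block (adjusted p = 0.140). HOMER2, a scaffold protein, was at 0.73 and was lost without IRES library 1 or 3 (0.0793 and 0.0575). These 2 were the calls among 18 tested genes known to answer to IL-4, in cells that had none. Of the 18, 13 had a log2 change above 0, and their median was 0.47 against 0.0015 over all genes. LPL, lipoprotein lipase, had 8.15, 3.83 and 8.73 CPM in NIC1 against 4.22, 2.02 and 3.51 CPM in IRES (log2 change 1.07, adjusted p = 0.0050, and 0.0708 without IRES library 3). TM7SF2 and DHCR7 fell among 24 cholesterol synthesis genes (log2 changes -0.47 and -0.36), and FADS2 and ACACA among 26 efflux and fatty acid genes (-0.47 and -0.32). NDRG1, at 0.48, was the only call among 29 glycolysis and hypoxia genes. Each of these 5 was lost without IRES library 1 (0.0793 to 0.26), and all but TM7SF2 also without IRES library 3 (0.0754 to 0.151).

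Of 40 cell cycle genes, 1 fell and none rose, beside 1.01% lower and 2.51% higher over all genes. All 40 were tested, 3 had a log2 change above 0, and the median was -0.21 against 0.0015 over all genes. MKI67, the Ki-67 proliferation antigen, was the only call, with 85.4, 40.6 and 75.9 CPM in NIC1 against 130, 52.9 and 104 CPM in IRES (log2 change -0.49, adjusted p = 0.029), lost on leaving out any library but IRES library 2 (0.0682 to 0.226) and over all 18 libraries (0.169). TOP2A, a DNA topoisomerase of dividing cells, did not pass (log2 change -0.34, adjusted p = 0.141). No gene was called among 34 interferon-stimulated, 26 unfolded protein and 15 mitochondrially encoded genes, nor among 9 fibroblast and epithelial, 7 histone and 5 erythroid and megakaryocyte genes, and their median log2 changes lay between -0.08 and 0.15.

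**Figure D4:**
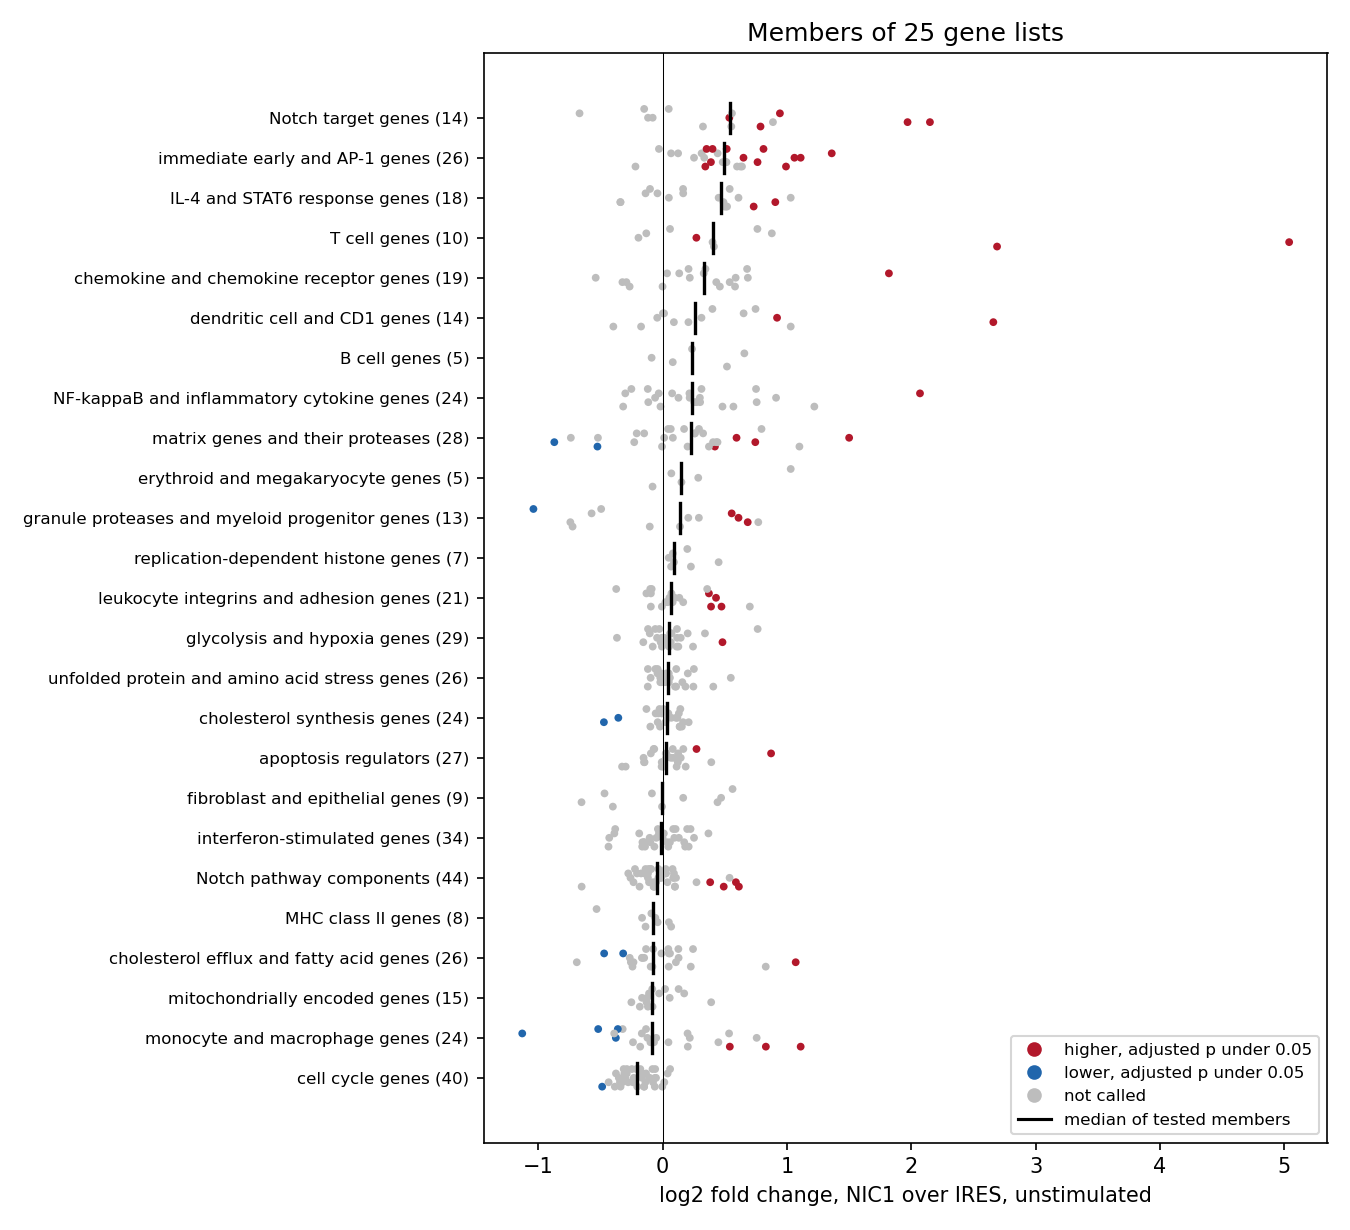
Log2 fold change, NIC1 over IRES without IL-4, of every tested member of 25 gene lists (number tested in brackets), 1 point per gene, with a black line at each list's median. Notch targets have the highest median (0.54) and cell cycle genes the lowest (-0.21); red and blue points are members called higher and lower over all genes.

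The same contrast in the libraries given IL-4 shows how far the differences were found in other libraries, which may come from the same cultures. There 739 of 14670 genes were called (5.04%), 501 higher (3.42%) and 238 lower (1.62%). Of the 366 genes higher without IL-4, 363 were tested with IL-4, 362 had the same sign and 273 were called higher, which is 74.6% of the list without IL-4 and 54.5% of the list with it. Of the 148 lower genes, 147 were tested, 145 had the same sign and 86 were called lower (58.1% and 36.1% of the lists). None was called the opposite way. HES4 had a log2 change of 1.83 with IL-4 against 2.15 without, DTX1 2.21 against 1.97, CD3D 2.52 against 2.69, MMP2 -0.87 against -0.87 and NOTCH1 0.78 against 0.61.

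A few genes lay farther apart. The log2 change of TGM2 was 0.35 with IL-4 and 0.91 without, that of JAG1 0.14 (adjusted p = 0.619) and 0.59, and that of ACACA -0.07 (adjusted p = 0.707) and -0.32. The difference between the changes with and without IL-4 was tested itself, and 0 of 15037 genes passed edgeR's test (811 at an unadjusted p under 0.05, lowest adjusted p 0.0871). For these 3 genes the adjusted p of that difference was 0.97, 0.97 and 0.48.

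**Figure D5:**
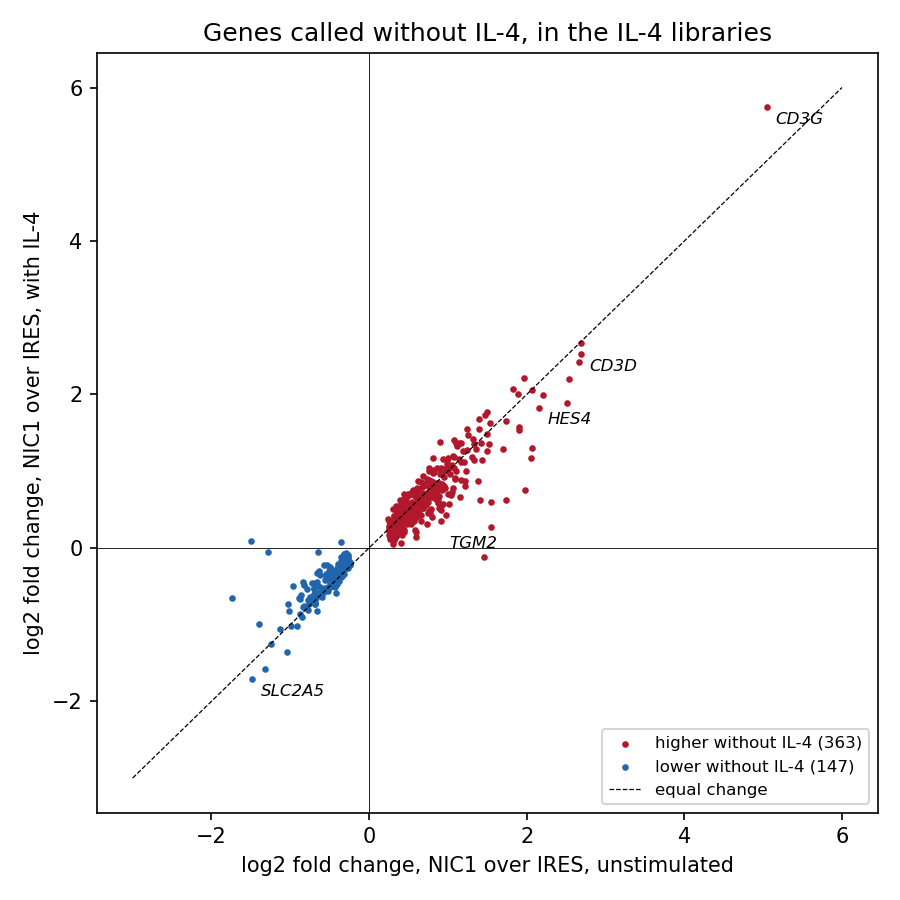
Log2 fold change, NIC1 over IRES, with IL-4 (vertical) against that without IL-4 (horizontal) for the genes called without IL-4 and tested with it, 363 higher in red and 147 lower in blue. The dashed line marks equal change; 362 red and 145 blue points keep their sign with IL-4.

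DNMAML occupies the Notch complex without activating it. Levels under it are given for some genes named above, followed by its comparisons with IRES. Without IL-4 that comparison shares the control libraries with the one above. With IL-4 its control libraries may come from the same cultures. These values and tests are therefore a description and no separate support. HES4 had 2.47, 3.01 and 2.49 CPM in DNMAML libraries without IL-4, HES1 6, 16.5 and 7.23 CPM and CD3D 1.27, 4.69 and 0.98 CPM. MAF had 4.27, 6.16 and 5.35 CPM in DNMAML libraries, and MMP2 172, 190 and 190 CPM. Against IRES without IL-4, 3 genes were called in DNMAML (0.0205%), 2 higher and 1 lower. MAML1, with 132, 123 and 139 CPM in DNMAML libraries, was 1 of the higher ones (log2 change 0.56, adjusted p = 0.016), and MAF was the lower one (log2 change -1.21, adjusted p = 0.037). In the IL-4 libraries, DNMAML against IRES, 277 of the 363 genes called higher in NIC1 without IL-4 had a log2 change below 0 (median -0.13, 7 called), and 116 of the 147 lower ones had a log2 change above 0 (median 0.11, 1 called). Over all genes of that comparison, the median log2 change was -0.0020, and 0.0613% were called lower and 0.00682% higher.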

How the data were processed

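RNA-seq was analysed in 18 libraries of PMA-treated THP-1 cells, of which 6 form the comparison. Raw counts of reads per gene, as whole numbers, are what the authors deposited. They list FastQC, Trimmomatic, HISAT2, HTSeq, DESeq2 and the build GRCh38.p12, per the submitters' processing notes. Versions, settings and the strand option are not stated there, so overlapping, antisense and near-identical genes are uncertain.

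Each file lists 58051 genes, of which 57447 were found in GENCODE 29. Entries that name no gene held 24.8% to 27.7% of reads in the 6 libraries and stayed out of library sizes and tests. Replicates differed by more than counting noise (chi-square per degree of freedom 6.98 to 37.7) and were counted separately.

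Genes were kept by filterByExpr (minimum count 10), scaled by TMM and tested with edgeR 4.0.16 (quasi-likelihood F test, robust) in R 4.3.3. The filter can admit a gene of low level through a single group. The 9 libraries without IL-4 were fitted with group means and the experiment number as a block, and p-values were Benjamini-Hochberg adjusted over 14601 genes at a threshold of 0.05. SEs derive from the F statistic, and a fold change of a gene under 5 counts in a group depends on the prior count. The IL-4 libraries had their own fit. The difference of effects was fitted on all 18 libraries with each construct and number as a block. Simulated data were used to check the script.

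The titles give the number as an experiment, and it paired the libraries. Deviations of log2 CPM from the group means correlated in all 9 same-number pairs (Pearson r across genes 0.222 to 0.775). The median over 18 other pairs was -0.41. Centring on group means pushes these below 0 once same-number pairs are above 0, so that value is no separate result. For 8 of the 9 libraries, the closest library of another group had the same number.

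The alternatives were other fits and scalings, limma 3.58.1 (voom), DESeq2 1.42.0, other filters and leaving out libraries. Named genes were NOTCH1 and MAML1, the 15 highest and 12 lowest log2 changes among called protein-coding genes of at least 2 CPM, the 8 of smallest p in each direction at 50 CPM or more, up to 4 called members per list and direction, all tested Notch target and T cell genes (1 of these is not reported here), and 2 non-coding genes per direction. Further immediate early genes, macrophage markers, RBPJ, NOTCH2, TOP2A and the neighbouring genes of the closing section were added with values seen. The members and the 25 lists were chosen with earlier results of these data known. Promoters are from RefSeq. Figures used Python 3.11.15 and matplotlib 3.10.9.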

Additional observations from a re-analysis of the deposited data

How the results depend on the processing

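The count of called genes (514, with 366 higher and 148 lower) moved with the block, the filter on low counts and the libraries left out. Without the replicate block 0 genes were called over the 9 libraries without IL-4 (0 higher, 0 lower), and 35 (28 and 7) over all 18. With the block over all 18 libraries, which treats libraries with and without IL-4 as independent, 808 were called (517 and 291). Without a filter on low counts 1061 were called (657 and 404). Leaving out 1 library gave 140 to 552 calls, 115 to 382 higher and 25 to 205 lower, with the fewest without IRES library 1. The share of higher calls, 71.2% with all libraries, lay between 62.9% and 82.1% in these. Leaving out experiment 2 gave 304 (194 and 110). Alternatives added after seeing the data were leaving out experiment 1, with 340 (274 and 66), and experiment 3, with 86 (74 and 12). RLE size factors, upper-quartile scaling, DESeq2, limma-voom, a 1 CPM filter and the 6 libraries alone gave 420 to 522 calls. DESeq2 called 413 of the 514 and the 6 libraries alone 372.

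The 359 genes called in the same direction without and with IL-4 were 0 without the replicate block, 125 to 324 without 1 library, and 373 when DNMAML with IL-4 replicate 3 was left out. The difference of effects had 0 calls under all 3 blocks tried, with 811, 366 and 121 genes at an unadjusted p under 0.05.

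Of 126 named genes, 100 were called, 43 of these under every omission of 1 library, 58 without IRES library 3 and 88 by DESeq2. 11 genes changed sign in some alternative, none of them called. Without 1 library their log2 changes ran from -0.22 to 0.034 for HES6, -0.27 to 0.0033 for HEYL, -0.086 to 0.23 for MYC, -0.38 to 0.13 for GATA3 and -0.33 to 0.11 for LCK. They ran from -0.096 to 0.15 for ZAP70, -0.59 to 0.061 for BCL11B, -0.069 to 0.018 for JUN, -0.028 to 0.079 for RBPJ and -0.12 to 0.044 for NOTCH2. Without experiment 1, MYC was -0.077, GATA3 0.086 and RBPJ -0.027. Without experiment 2, ZAP70 was -0.10. Without experiment 3, MYC was -0.041, BCL11B 0.11, NOTCH2 0.034 and SPI1 -0.00365.

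At this depth genes of a few counts per library, such as CD3E or CD1E, could not be compared.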

Other observations

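Some called genes were neighbours on the chromosome, that is, consecutive among tested genes, with gaps of up to 779900 bases. Among 14539 pairs of neighbouring tested genes, 49 were both higher in NIC1, 4 both lower and 4 opposite. The next gene was also higher for 13.4% of the higher genes, against 2.52% over all genes, and also lower for 2.70% of the lower genes, against 1.02%. In 7 of the higher pairs and 1 of the lower pairs the genes overlap, and without a stated strand setting their reads may not be separate.

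Some runs, picked after their values were seen, are given as values. On chromosome 2, IL1R1, IL1RL1, IL18R1 and IL18RAP, receptor chains of the interleukin 1 family, were higher at log2 changes of 1.09, 2.07, 0.92 and 1.02. IL18R1 had 58.6, 75.5 and 58.6 CPM in NIC1 against 26.2, 51.0 and 28.0 CPM in IRES. On chromosome 1, IL24, FCMR and PIGR were higher at 2.06, 1.19 and 2.20, where FCMR, an IgM receptor, had 34.8, 21.1 and 24.6 CPM in NIC1 against 12, 10.5 and 12.7 CPM in IRES. On chromosome 12 the keratin genes KRT3, KRT79 and KRT78 were at 1.90, 0.69 and 1.74, and on chromosome 11 MPZL2, CD3D and CD3G were all higher, MPZL2 at 1.52. On chromosome 7, TMEM176B, TMEM176A, AOC1 and KCNH2 were all lower, at -0.99, -1.03, -0.78 and -0.68. The calls of IL1R1 and FCMR were lost without IRES library 1 or 3 (adjusted p of 0.17 and 0.0771, and 0.115 and 0.0693). Those of KRT79 (0.0575 to 0.0925), IL24 (0.0602 to 0.147), IL18RAP (0.119 to 0.261), KRT78 (0.0718 to 0.183) and MPZL2 (0.0625 to 0.17) were lost without 2 to 5 of the libraries, IRES library 3 among them. No chance test was made of the runs.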
